A study of Mus musculus with 4 samples.

Results

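The spots at the edge of infarcted mouse myocardium were compared with spots lying inside the same infarct in spatial transcriptome sections of 3 hearts. Infarct spots were chosen by a measured value, the share of a spot's unique molecular identifiers (UMIs) that came from 12 cardiomyocyte genes. A spot belonged to the infarct zone (IZ) where this share was under 0.5 times the 90th percentile of its section and where it joined a patch of at least 10 such spots. Position then split the IZ. Surface spots had fewer than 6 neighbours inside the tissue mask, the set of spots that the authors had marked by hand as lying under tissue, and inner spots were 2 or more steps from any spot with an incomplete ring. By this rule 569 surface and 1532 inner spots were found, 2101 of the 2651 IZ spots, of 4743 spots kept in the infarcted sections and of 5909 in the series. The other 550 IZ spots lay 1 step from the edge and were in neither class.

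The series holds 4 Visium sections, 1 from each of 4 hearts, taken from an uninjured control, at 3 days post-injury (dpi) and, for 2 hearts, at 5 dpi, the latter labelled female and male (the control and 3 dpi hearts are labelled female). All mice were Collagen1a1-GFP+, a reporter of collagen-producing cells, and 8 to 12 weeks old, and injury was a myocardial infarction made by tying the left anterior descending artery. A Visium spot is a small printed region that holds several cells, so the values describe tissue patches and not cells, and a heart, not a spot, is the replicate. The 4 sections held 6370134 to 11269552 UMIs in kept spots.

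The outer face of the heart is the epicardium, a sheet of mesothelial cells over a thin connective layer that borders the pericardial space. The inner face borders the blood of the ventricle and carries the endocardium, beneath which a thin layer of muscle can outlive the loss of coronary flow. After infarction the dying muscle between both faces is cleared by neutrophils and macrophages and replaced by collagen laid down by activated fibroblasts, among them the reparative cardiac fibroblasts (RCFs).

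Some features of the sections bear on every value below. The mask of the 3 dpi section enclosed no cavity, so its 62 surface spots all faced outwards, whereas the 5 dpi section labelled female had 182 outer-facing and 113 cavity-facing surface spots and the section labelled male had 123 and 89. In the section labelled male, 560 spots with at least 500 UMIs lay outside the mask, and 161 of its 212 surface spots touched one of them, so the edge of the mask there was not the edge of the RNA signal. The labels for sex did not match the counts: 4 Y-linked genes together gave 718 UMIs in the section labelled female, whereas the one labelled male held 1 and the control and 3 dpi sections 0. Those sections are therefore called by their labels only and no comparison by sex was made.

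**Figure D1:**
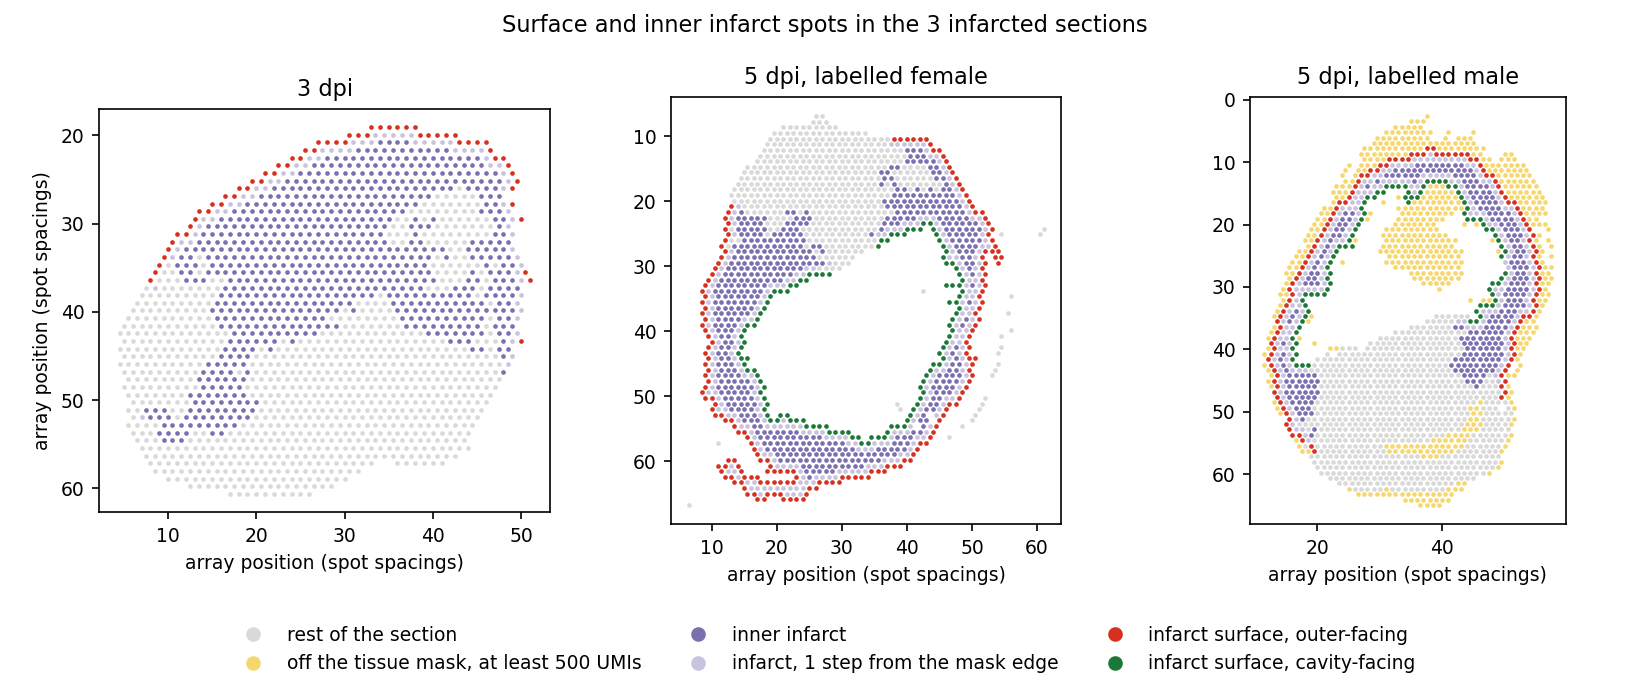
Positions of the spots in the 3 infarcted sections, with both axes in spot spacings on the array. Red points are outer-facing and green points cavity-facing surface spots, dark purple inner IZ spots, light purple IZ spots 1 step from the edge, grey the rest of the section, and yellow spots off the mask with at least 500 UMIs, of which 560 lie in the section labelled male and none in the others.

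The rule acted on cardiomyocyte genes, whose values are given here as a description only. The limit was 5.28%, 4.31% and 4.64% of non-mitochondrial UMIs in the 3 dpi section and the 5 dpi sections labelled female and male, an order kept in all lists of 3 values below. The highest share inside the IZ was 5.28%, 4.27% and 4.58%, and the lowest among spots at or above the limit 5.28%, 4.33% and 4.64%. A further 23, 36 and 10 spots under the limit lay in patches of fewer than 10 spots and so stayed outside the IZ. Over the summed spots the cardiomyocyte share was 1.88%, 0.808% and 1.11% at the surface and 2.14%, 0.813% and 0.865% inside. In CPM, UMI counts scaled to a total of 1000000 non-mitochondrial UMIs and summed over the spots of a class, border cardiomyocyte genes, which the rule did not use, summed to 13388, 14924 and 22669 CPM at the surface and 18946, 8143 and 10482 CPM inside, a higher level at both 5 dpi surfaces and a lower one at 3 dpi. In the control section the 12 genes of the rule made up 9.86% of surface and 10.2% of inner UMIs. Inner IZ spots carried 6925, 12166 and 10766 CPM summed over 10 macrophage genes against 980 CPM in the inner control spots. Surface spots were shallower than inner spots at 3 dpi, with a median of 2012 against 6667 UMIs, but not to the same degree at 5 dpi, where the medians were 6473 against 7528 and 7345 against 6709. Mitochondrial transcripts made up 6.56%, 5.56% and 4.01% of surface UMIs and 10.4%, 5.47% and 3.17% of inner UMIs. The inner class sat closer to tissue outside the IZ at 3 dpi and in the section labelled male. Its spots lay a median of 3 and 5 steps from the nearest such spot there, against 7 and 10 for surface spots. Tissue spots with too few UMIs to be kept and low-share spots in small patches counted as outside the IZ.

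The comparison asks which transcripts differ between the edge and the inside of the infarct. Across whole surface and inner classes, summed per heart and paired within it, genes such as Saa3, Slpi and Hp and 3 of 7 tested mesothelial genes (Msln, Krt8 and Nkain4) were higher at the surface, whereas Cilp, Ptn, Cxcl10, Ccl3 and C1qtnf3 were lower. Of 10393 genes tested, 22 passed the quasi-likelihood test of edgeR after Benjamini-Hochberg adjustment (0.212%): 17 were higher (0.164%) and 5 lower (0.0481%) at the surface, and 20 of the 22 had 1 sign of the log2 ratio in all 3 hearts. The exceptions, Lrrc15 and C1qtnf3, had 0 UMIs at the 3 dpi surface, where the ratios of both rest on the prior count and show no direction. Levels are given in CPM. In such sums, fewer cells of a type and less RNA per cell cannot be told apart.

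Saa3, which encodes an acute-phase serum amyloid protein, stood at 144, 478 and 262 CPM at the surface and at 6.72, 22.4 and 43.5 CPM inside. The classes did not overlap, and the fitted difference was 3.66 on the log2 scale (SE 0.23, adjusted p = 6.12e-11). Slpi, an inhibitor of leukocyte serine proteases, measured 105, 120 and 80.8 CPM at the surface against 7.61, 18.7 and 18.7 CPM inside, again without overlap (log2 difference 2.60, SE 0.19, adjusted p = 9.59e-10). Hp, the haemoglobin-binding haptoglobin, stood at 98.3, 170 and 192 CPM against 32.0, 55.1 and 38.6 CPM (log2 difference 1.83, SE 0.15, adjusted p = 9.97e-09).

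Smaller differences were measured for 3 more abundant transcripts. Spon2, a secreted matrix protein of the spondin family, measured 39.3, 81.2 and 59.0 CPM at the surface and 19.0, 23.7 and 36.9 CPM inside, a log2 difference of 1.26 (adjusted p = 0.000461). Mt2, a metal-binding metallothionein, measured 203, 144 and 153 CPM against 114, 90.8 and 78.8 CPM (log2 difference 0.76, adjusted p = 0.00234). For C3, the central complement component, the classes were alike at 3 dpi, with 45.9 against 44.1 CPM, and apart at 5 dpi, with 306 against 173 and 394 against 262 CPM (log2 difference 0.63, adjusted p = 0.0224). Spon2 and C3 were also higher at the surface of the same sections outside the IZ. Spon2 measured 97.1, 80.3 and 47.2 CPM at that surface against 36.8, 28.4 and 22.0 CPM inside that tissue. C3 measured 148, 507 and 162 CPM against 98.8, 144 and 52.0 CPM there. Mt2 was mixed, at 164, 125 and 90.9 CPM against 117, 80.8 and 94.3 CPM.

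The other genes higher at the surface were scarce inside the IZ and rest on few UMIs at 3 dpi. Prtn3, a serine protease of immature myeloid cells, measured 19.7 CPM (3 UMIs at 3 dpi), 30.7 and 15.4 CPM, whereas inside it stood at 0.896, 1.58 and 2.20 CPM (log2 difference 3.83, adjusted p = 9.31e-07). Serpinb2, the plasminogen activator inhibitor of activated macrophages, likewise rested on 3 UMIs at 3 dpi, all from 1 spot, and stood at 17.2 and 21.2 CPM in the later sections, whose inner classes held 2.11 and 1.10 CPM. Msln, the mesothelial surface protein mesothelin, gave 1 UMI at the 3 dpi surface, 96.2 and 12.8 CPM at the 5 dpi surfaces and 20.1 and 6.06 CPM inside them (log2 difference 2.09, adjusted p = 9.99e-07). Krt8, an epithelial keratin, measured 39.3, 40.1 and 7.05 CPM against 1.57, 4.49 and 3.86 CPM (log2 difference 2.93, adjusted p = 6.13e-05). The remaining genes that rose were Ccl24, Nkain4, Lgals7, Fcna, Ptgs1 and Lrrc15, with log2 differences of 3.09, 2.40, 2.29, 1.48, 1.37 and 1.26. Lrrc15 had no UMI at the 3 dpi surface, so its ratio there rests on the prior count and shows no direction.

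Cilp, a cartilage-type matrix protein made by fibroblasts, was the most abundant gene lower at the surface, at 39.3, 169 and 133 CPM against 102, 267 and 247 CPM inside (log2 difference -0.83, SE 0.13, adjusted p = 0.00109). Ptn, the growth factor pleiotrophin, stood at 65.5, 81.2 and 77.6 CPM against 74.3, 140 and 132 CPM (log2 difference -0.77, SE 0.14, adjusted p = 0.00511), with surface and inner values overlapping between hearts. Cxcl10, an interferon-induced chemokine, measured 85.2, 26.5 and 16.7 CPM against 92.9, 49.1 and 42.4 CPM (log2 difference -0.94, SE 0.19, adjusted p = 0.0224). Ccl3, a chemokine of activated myeloid cells, was low throughout, at 6.55 CPM (1 UMI), 4.16 and 1.28 CPM where the inner classes held 14.3, 13.7 and 13.2 CPM, and C1qtnf3, a secreted C1q-related protein, fell by 1.45 on the log2 scale with 0 UMIs at the 3 dpi surface.

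The number of calls depended on single sections and on the mask. It was 131 without the 3 dpi section, 33 without the section labelled male and 5 without the section labelled female (among them Hp, Saa3, Serpinb2 and Slpi). These 5 were all higher at the surface, as were the 8 calls with DESeq2 and the 4 without pairing within hearts. None of the genes lower at the surface was called in those settings. When spots off the mask with at least 500 UMIs counted as tissue, 1 gene was called, Msln: the log2 differences of Saa3, Slpi and Spon2 were then 2.72, 1.70 and 1.04, and those of Hp, Mt2, C3 and Cilp were 0.59, 0.42, 0.16 and -0.49. With spots at least 3 steps from tissue outside the IZ, Cilp, C3 and Ptn were not called, at -0.17, 0.45 and -0.59 (adjusted p = 0.84, 0.231 and 0.0918 by edgeR).

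The face of the wall separated the surface calls. On the outer-facing side, 21 of the 22 genes could be tested, all in the same direction and 18 past the threshold. On the cavity-facing side 15 could be tested, of which 8 had the same direction (4 called) and 7 the opposite one (5 called). Both faces are therefore described in turn, each against the inner class of the same hearts.

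At the outer face Saa3, Slpi and Hp were higher than inside, as were 4 of 7 tested mesothelial, 3 of 6 resident macrophage and 3 of 6 neutrophil genes, whereas 7 of 9 cardiomyocyte stress genes and 4 of 6 cartilage-type matrix genes were lower. Of 9701 genes tested in the 3 hearts, 178 passed (1.83%), 90 higher (0.928%) and 88 lower (0.907%), and 10 of the 178 were cardiomyocyte genes used by the rule. Without the section labelled female 62 genes passed, 57 of them among the 178, and Msln and Trim54 were not called. Saa3 reached 144, 902 and 510 CPM at the outer face and 18.4 and 15.3 CPM at the 5 dpi cavity faces, below the 22.4 and 43.5 CPM of the inner class (outer log2 difference 4.44, SE 0.22, adjusted p = 3.04e-14). Slpi stood at 105, 224 and 155 CPM (log2 difference 3.38, SE 0.17, adjusted p = 3.04e-14) and Hp at 98.3, 304 and 367 CPM (log2 difference 2.56, SE 0.18, adjusted p = 2.92e-11). These transcripts were spread over spots: Saa3 UMIs were found in 12 of 62, 91 of 182 and 53 of 123 outer spots, and the richest spot held 31.8%, 8.76% and 21.2% of them. In the control section Saa3 had 0 UMIs in surface spots and Slpi had 1. Also named by the rule were Ptgs1, the constitutive cyclooxygenase, and Ltc4s, the synthase of leukotriene C4, which rose by 1.90 and 1.46 on the log2 scale, and Spon2, which rose by 1.80.

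Promoter windows of Saa3 and C3, which encode acute-phase proteins, are shown because C/EBP factors are textbook regulators of that response. The windows run from 250 bases before to 50 bases after the gene start in RefSeq on GRCm38.p6, on the minus strand for both Saa3 (chr7:46715627-46715926) and C3 (chr17:57228087-57228386). Capitals mark matches to TTGCNNAA or, on the other strand, TTNNGCAA, where N is any base.
Saa3: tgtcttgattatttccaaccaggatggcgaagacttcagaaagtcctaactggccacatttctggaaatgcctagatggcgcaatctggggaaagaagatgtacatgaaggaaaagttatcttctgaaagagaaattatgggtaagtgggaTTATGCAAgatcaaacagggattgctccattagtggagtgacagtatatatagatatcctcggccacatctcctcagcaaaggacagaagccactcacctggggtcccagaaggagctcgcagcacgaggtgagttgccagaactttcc
C3: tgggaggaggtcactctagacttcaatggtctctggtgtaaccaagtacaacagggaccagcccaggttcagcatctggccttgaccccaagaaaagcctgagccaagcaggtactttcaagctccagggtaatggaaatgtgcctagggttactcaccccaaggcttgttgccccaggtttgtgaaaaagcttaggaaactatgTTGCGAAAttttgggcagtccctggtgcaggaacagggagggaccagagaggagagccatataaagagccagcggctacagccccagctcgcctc
This motif occurred in 10.8% of all 32851 windows of that length. Among the 8 genes named as higher at the outer face, 4 had a window and 2 of these, Saa3 and Slpi, held a match. Hp had no window, and C3 is not one of those 8 genes and was shown for its match. A match is a run of letters and says nothing of binding.

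Part of the mesothelial list was higher at the outer face, by large factors from low inner levels. Of the 15 genes of that list, 7 were abundant enough to be tested there and 4 rose, none fell, and the median log2 difference was 2.96 against -0.0024 over all genes. The filter on low counts kept a gene that was abundant in 1 class alone. A gene could thus enter through the outer class, where it was high, as Upk3b did. The count and the median are therefore a description and not a test of the list. Msln stood at 6.55 CPM from 1 UMI, 179 and 25.8 CPM at the outer face, at 0.224, 20.1 and 6.06 CPM inside, and at 6.50 and 0 CPM at the cavity faces (log2 difference 2.96, SE 0.22, adjusted p = 2.42e-10). The uroplakins Upk3b and Upk1b, membrane proteins of mesothelium and urothelium, rose by 4.64 and 3.69 on the log2 scale (adjusted p = 1.55e-06 and 7.37e-07). Upk3b measured 13.1, 43.0 and 10.3 CPM there and 0, 2.11 and 0 CPM inside. Krt8 rose by 3.61 (adjusted p = 4.55e-07), from 1.57, 4.49 and 3.86 CPM inside to 39.3, 73.0 and 11.6 CPM. Other members of the list did not follow: Krt18 measured 19.7, 42.0 and 14.2 CPM against 30.5, 19.0 and 33.1 CPM, and Aldh1a2, the retinoic acid synthase of epicardium, 39.3, 39.0 and 18.0 CPM against 71.0, 25.3 and 26.5 CPM. Msln was also present at the uninjured surface, with 17.3 CPM in the control against 0 inside.

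Myeloid lists gave different counts of calls at the outer face, and the difference between lists was not tested. None of the 10 general macrophage genes tested passed in either direction, with a median log2 difference of -0.02, and Lyz2, the macrophage lysozyme, measured 4797, 5922 and 6667 CPM against 3220, 6024 and 4819 CPM. Of 6 tested resident macrophage genes 3 rose: Cd163, the haemoglobin scavenger receptor, at 19.7, 24.0 and 7.73 CPM against 3.14, 1.85 and 1.65 CPM (log2 difference 3.05, adjusted p = 0.00039), the hyaluronan receptor Lyve1 by 2.41 and the transglutaminase F13a1 by 0.94. Scarce genes such as Cd163 could pass the filter through the outer class alone, where they were high, so this count is a description. Over the whole surface class 4 of the 8 listed genes could be tested and none passed. Of 6 tested neutrophil genes 3 rose, namely the calprotectin subunits S100a8 and S100a9 and the lectin receptor Clec4d, by 0.98, 0.95 and 0.65 on the log2 scale. S100a8 measured 105, 163 and 200 CPM at the outer face against 84.9, 92.4 and 65.6 CPM inside, without overlap (adjusted p = 0.000578).

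Complement genes rose in part, 3 of 7 tested. C3 stood at 45.9, 493 and 688 CPM against 44.1, 173 and 262 CPM (log2 difference 1.28, adjusted p = 1.97e-06), so both 5 dpi outer faces lay above their inner classes and the 3 dpi values were alike. C4b measured 26.2, 189 and 106 CPM against 27.1, 49.1 and 68.9 CPM (log2 difference 1.24, adjusted p = 0.000357), and the protease C1s1 rose by 1.02. Of the heme and iron genes 1 of 6 rose, Hmox1, the heme oxygenase, at 708, 706 and 591 CPM against 490, 519 and 310 CPM (log2 difference 0.57, adjusted p = 0.00873). Among 12 metalloproteinases and Timps 3 rose, the stromelysin Mmp3 by 1.62, the gelatinase Mmp9 by 1.48 and their inhibitor Timp1 by 0.51. Fat cell markers moved with the outer face in 1 heart: the adipocyte list summed to 184 CPM at the outer face of the section labelled female and 5.81 CPM inside it, and to 0 and 1.29 CPM at the other outer faces. Its part in the values of that section was not tested.

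Matrix genes of the cartilage type were lower at the outer face. Of 6 tested, 4 fell and none rose, with a median log2 difference of -1.10. Thbs4, a pentameric thrombospondin of tendon and stressed heart, measured 65.5, 41.0 and 39.9 CPM at the outer face, 73.7, 193 and 230 CPM inside and 314 and 282 CPM at the cavity faces. The outer log2 difference was -2.20 (SE 0.21, adjusted p = 4.86e-08), and at 5 dpi the 3 positions kept the same order in both hearts. Cilp fell by 1.44 (adjusted p = 2.28e-07), Comp, another thrombospondin-family protein of cartilage, by 1.19 and the collagen-binding proteoglycan Fmod by 1.01. Fbln5, an elastic-fibre protein, stood at 19.7, 87.0 and 94.0 CPM against 35.2, 169 and 203 CPM, a log2 difference of -1.07. Of 7 small leucine-rich proteoglycans 3 fell, Fmod, Ogn and Aspn, the latter pair by 0.86 and 0.75.

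Of 6 RCF markers, 3 fell at the outer face and none rose, with a median log2 difference of -0.55. Postn, the matricellular protein periostin, measured 1429, 2562 and 2086 CPM at the outer face and 2297, 3763 and 4007 CPM inside, each lower in its own heart (log2 difference -0.79, SE 0.12, adjusted p = 0.000111). Cthrc1, a secreted protein with a collagen triple helix repeat, stood at 262, 580 and 377 CPM against 387, 624 and 808 CPM (log2 difference -0.64, adjusted p = 0.0162), and Ddah1, which breaks down an inhibitor of nitric oxide synthesis, fell by 0.89 (adjusted p = 0.00187). Fibrillar collagens did not move with them. Only Col5a3 of 7 passed, higher by 0.52, and Col1a1, the main chain of scar collagen, measured 3820, 9057 and 6152 CPM at the outer face and 3083, 5502 and 5251 CPM inside (log2 difference 0.36, adjusted p = 0.161).

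Cardiomyocyte stress genes fell at the outer face in the same hearts, 7 of 9 border cardiomyocyte genes with a median log2 difference of -0.74. Their summed level was 13388, 3058 and 6029 CPM against 18946, 8143 and 10482 CPM inside. These genes are not those of the rule but are made by the same cells, and the outer classes held fewer cardiomyocyte UMIs (1.88%, 0.371% and 0.654%) than the inner classes (2.14%, 0.813% and 0.865%). Nppa, which encodes atrial natriuretic peptide, measured 8486, 1608 and 3297 CPM against 12332, 5430 and 6694 CPM (log2 difference -1.17, SE 0.15, adjusted p = 6.63e-06), and its relative Nppb 131, 21.0 and 34.8 CPM against 298, 50.7 and 62.3 CPM (log2 difference -1.16, adjusted p = 0.000281). Ankrd1, a mechanosensitive titin-binding protein, fell by 1.08 (adjusted p = 3.64e-06), the slow myosin heavy chain Myh7 by 1.18 and the sarcomeric ubiquitin ligase Trim54 by 1.06.

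**Figure D2:**
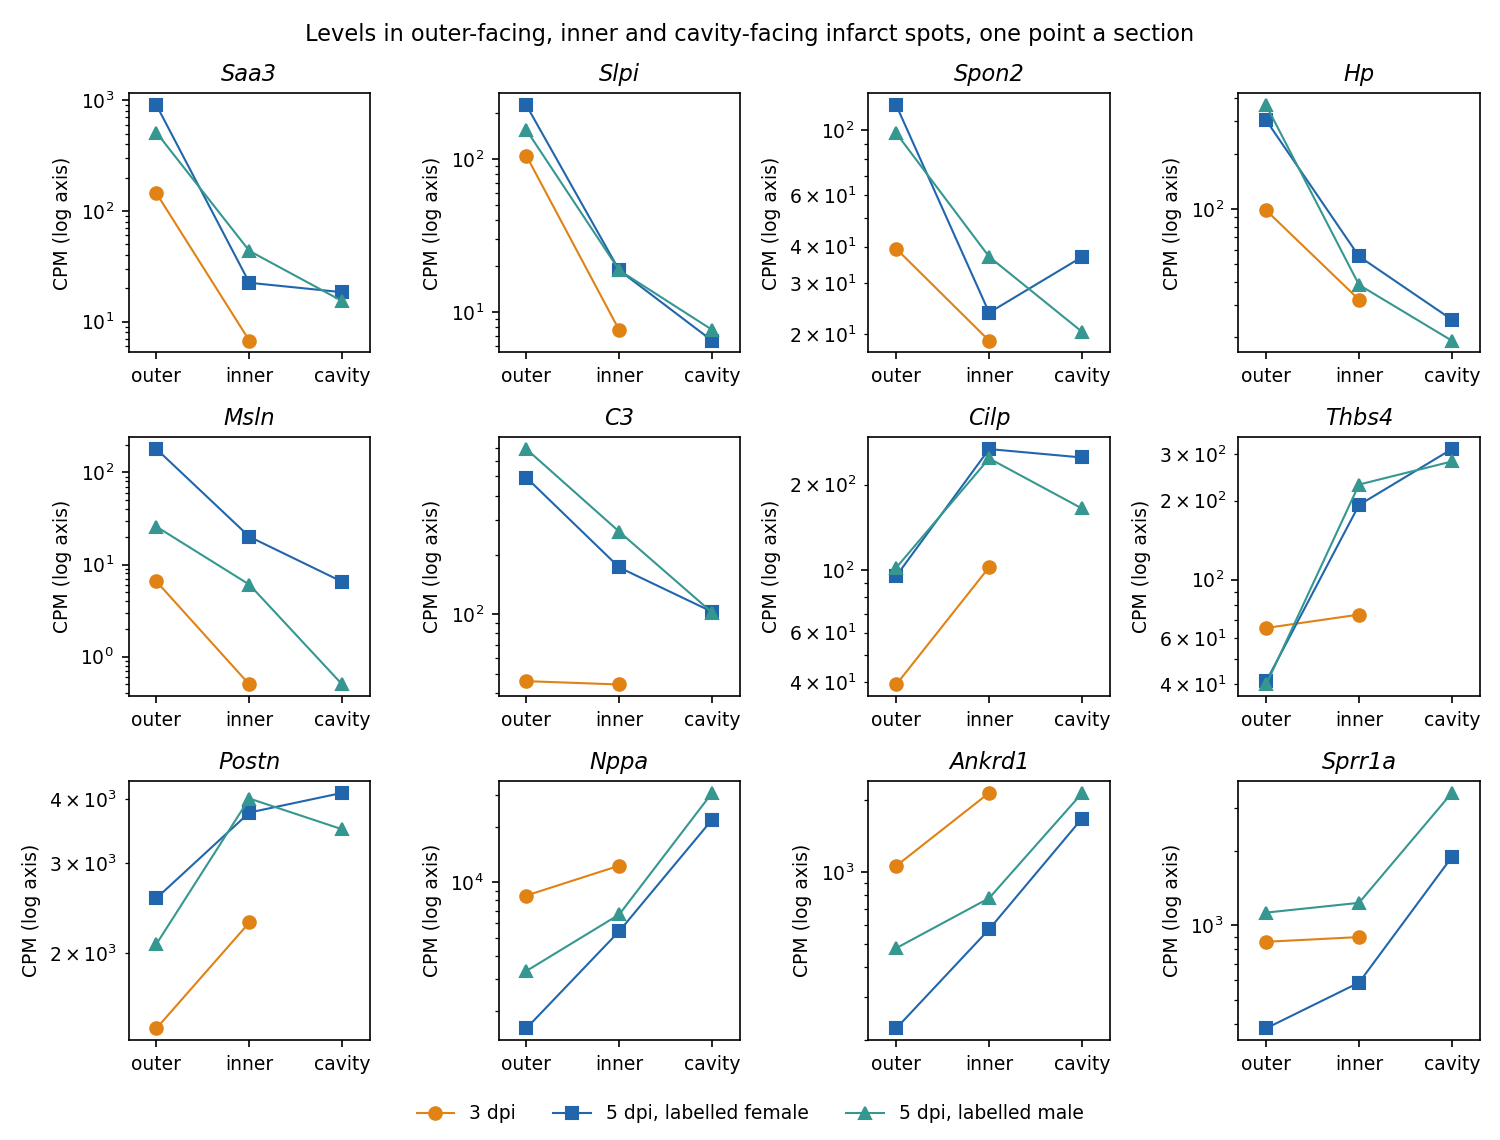
Levels of 12 genes in the outer-facing, inner and cavity-facing classes, as CPM on log axes that differ between panels, with 1 point per section joined by a line and values under 0.5 CPM drawn at 0.5. Saa3, Slpi and Hp lie highest at the outer face in each section, Cilp and Postn lie lowest there, and Nppa reaches 21962 and 30700 CPM at the cavity faces of the 5 dpi sections labelled female and male.

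At the cavity face 8 of 9 border cardiomyocyte genes were higher than inside and 1 was lower, whereas 9 of 10 macrophage, 5 of 11 interferon-induced, 4 of 7 complement and 3 of 5 neutrophil genes were lower and none of these higher. Only the 5 dpi sections had such a face, so 2 hearts entered the fit, the spread rests largely on what edgeR shares across genes, and the p-values carry less weight than the values themselves. Of 9715 genes 724 passed (7.45%), 394 higher (4.06%) and 330 lower (3.4%). The cardiomyocyte share was 1.28% and 1.56% of UMIs at the cavity face against 0.813% and 0.865% inside, a difference that the rule allows but did not set.

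Nppa stood at 21962 and 30700 CPM at the cavity face of the sections labelled female and male, against 5430 and 6694 CPM inside (log2 difference 2.13, SE 0.07). Sprr1a, a cornified-envelope protein that injured cardiomyocytes express, measured 1893 and 3442 CPM against 587 and 1234 CPM (log2 difference 1.60, SE 0.09), and Ankrd1 1673 and 2133 CPM against 577 and 779 CPM (log2 difference 1.51). Both hearts were higher at the cavity face for each of these. The border cardiomyocyte genes had a median log2 difference of 1.08. The one that fell was Acta1, skeletal alpha-actin, at 195 and 361 CPM against 433 and 506 CPM, and it had also fallen at the outer face, by 0.59. The list summed to 27785 and 39161 CPM at the cavity face, against 25932 and 28863 CPM at the surface of the same sections outside the IZ. That surface mixed both faces, with 56 outer-facing and 12 cavity-facing spots in the section labelled female and 49 and 78 in the other. Genes of the list differed in direction. Nppa (16390 and 16863 CPM) and Sprr1a (271 and 256 CPM) were lower there than at the cavity face. Ankrd1 (2524 and 3552 CPM), Nppb and Myh7 were higher there. Further genes named by the rule were Clip4, a microtubule-binding protein, Parm1, Ppp1r3c, which targets a phosphatase to glycogen, and Myl1, a myosin light chain, with log2 differences of 1.50, 1.49, 1.45 and 1.38.

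The promoters of a pair of cardiomyocyte stress genes are shown because M-CAT elements, bound by TEAD factors, are known from cardiac stress promoters. The windows lie at chr4:147985650-147985949 on the plus strand for Nppb and at chr19:36119795-36120094 on the minus strand for Ankrd1, from RefSeq on GRCm38.p6. Capitals mark GGAATG or its reverse complement CATTCC.
Nppb: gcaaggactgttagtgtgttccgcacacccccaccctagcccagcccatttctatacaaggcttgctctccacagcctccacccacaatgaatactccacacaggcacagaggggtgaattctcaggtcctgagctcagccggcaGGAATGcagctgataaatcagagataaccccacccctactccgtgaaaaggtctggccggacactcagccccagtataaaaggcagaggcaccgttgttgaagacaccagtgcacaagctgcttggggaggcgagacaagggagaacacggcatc
Ankrd1: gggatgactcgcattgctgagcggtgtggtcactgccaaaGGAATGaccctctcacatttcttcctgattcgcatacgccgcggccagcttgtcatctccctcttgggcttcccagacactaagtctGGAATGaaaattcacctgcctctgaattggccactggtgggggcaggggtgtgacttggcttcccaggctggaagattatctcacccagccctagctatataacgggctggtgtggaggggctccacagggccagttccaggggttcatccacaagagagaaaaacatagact
The motif was found in 14.7% of the 32851 windows. It was present in 5 of the 10 windows of the 8 genes named as lower at the outer face (Ankrd1, Myh7, Nppb, Thbs4 and Trim54) and in 2 of the 9 windows of 7 genes named as higher at the cavity face (Ankrd1 and Myl1). The lists share Ankrd1 and Nppa, and the counts are given as a description. Both genes shown hold a match, whereas Nppa does not, and Nppb is not among the genes named at the cavity face.

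Myeloid transcripts were lower at the cavity face. Of 10 macrophage genes 9 fell, with a median of -0.56, and their summed level was 7063 and 6633 CPM against 12166 and 10766 CPM inside. Lyz2 measured 2956 and 2449 CPM against 6024 and 4819 CPM, and fell by 0.98 on the log2 scale. Of 10 lipid-associated macrophage genes 7 fell, among them Gpnmb, a lysosomal glycoprotein, at 306 and 299.9 CPM against 644 and 545 CPM, the lipid receptor Trem2 by 0.82 and osteopontin, Spp1, also by 0.82. The member that rose was Lpl, lipoprotein lipase, which heart muscle also expresses, by 0.36. The neutrophil genes that rose at the outer face, S100a8, S100a9 and Clec4d, fell here by 0.56, 0.78 and 0.97.

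Further immune lists were lower in part. MHC class II genes fell in 4 of 7, including H2-Aa by 0.67 and its chaperone Cd74 by 0.50, interferon-induced genes in 5 of 11, heme and iron genes in 4 of 6 and complement genes in 4 of 7. C3 measured 103 and 102 CPM at the cavity face against 173 and 262 CPM inside (log2 difference -1.03), and Hmox1 269 and 146 CPM against 519 and 310 CPM (log2 difference -0.99). The genes named by the rule as lower were Ptn at -1.24, the membrane protein Itm2a at -1.21, Nrros, which tethers latent TGF-beta on myeloid cells, at -1.19, the phospholipid transfer protein Pltp at -1.08, Tmem37 at -1.06, the apelin receptor Aplnr at -1.05, the lipase Pla2g7 at -1.04 and C3. Nrros stood at 30.4 and 26.8 CPM against 67.8 and 65.6 CPM, and Pltp at 94.3 and 94.4 CPM against 195 and 213 CPM. Within the mesothelial list, Krt18 and Aldh1a2 rose at the cavity face, by 1.02 and 1.08, whereas Msln measured 6.50 and 0 CPM and was not abundant enough to be tested there.

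**Figure D3:**
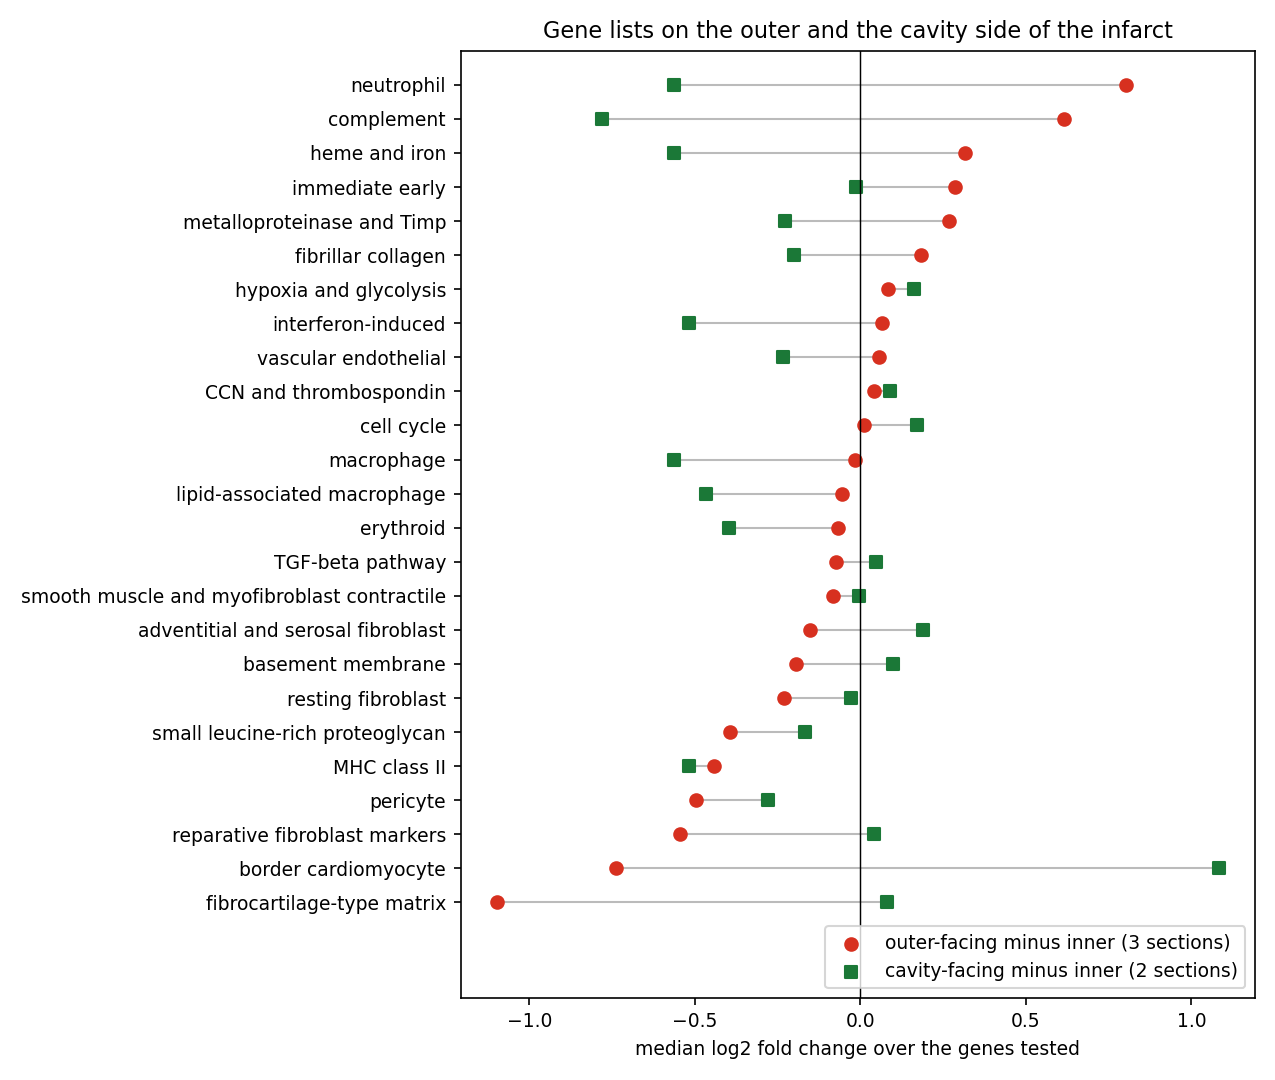
Median log2 difference from inner IZ spots over the tested genes of 25 lists with at least 5 such genes on each face, at the outer face of 3 sections (red circles) and the cavity face of 2 sections (green squares). Border cardiomyocyte genes lie at -0.74 and 1.08, neutrophil genes at 0.80 and -0.56, and the medians over all genes were -0.0024 and -0.0023.

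Set directly against each other in the same hearts, both faces differed by more than 2-fold in both 5 dpi sections for part of the 3681 genes with at least 50 CPM at either face: 67 were higher outside (1.82%) and 80 at the cavity (2.17%). No test was made of this contrast. Saa3 was 47.6-fold and 32.0-fold higher at the outer face, Slpi 31.9-fold and 18.7-fold and Hp 12.0-fold and 18.6-fold. Ccl21a, a chemokine of lymphatic endothelium, measured 32.0 and 56.7 CPM outside against 4.34 and 6.38 CPM. Near-identical copies of this gene exist, so its counts are uncertain. Towards the cavity, Nppa was 13.7-fold and 9.31-fold higher, Thbs4 7.59-fold and 6.97-fold and Ankrd1 7.49-fold and 4.42-fold.

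The decline with depth was steep on both sides. Saa3 at the outer side measured 144 CPM at the edge, 145 CPM 1 step in and 22.2 CPM at 2 steps at 3 dpi. In the section labelled female it stood at 902, 1047 and 37.6 CPM over the same steps, and in the section labelled male at 510, 84.8 and 79.9 CPM. The high layer was thus 2 spots deep in the first pair of sections and 1 spot deep at the mask of the last. Slpi measured 105, 103 and 11.1 CPM over these steps at 3 dpi and 224, 194 and 44.3 CPM in the section labelled female. At the cavity side Nppa measured 21962, 7913 and 5818 CPM from the edge to 2 steps in the section labelled female and 30700, 8728 and 6302 CPM in the section labelled male. Gpnmb ran the other way, with 306, 828 and 798 CPM and with 299.9, 771 and 756 CPM, so the low layer was 1 spot deep in both hearts.

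**Figure D4:**
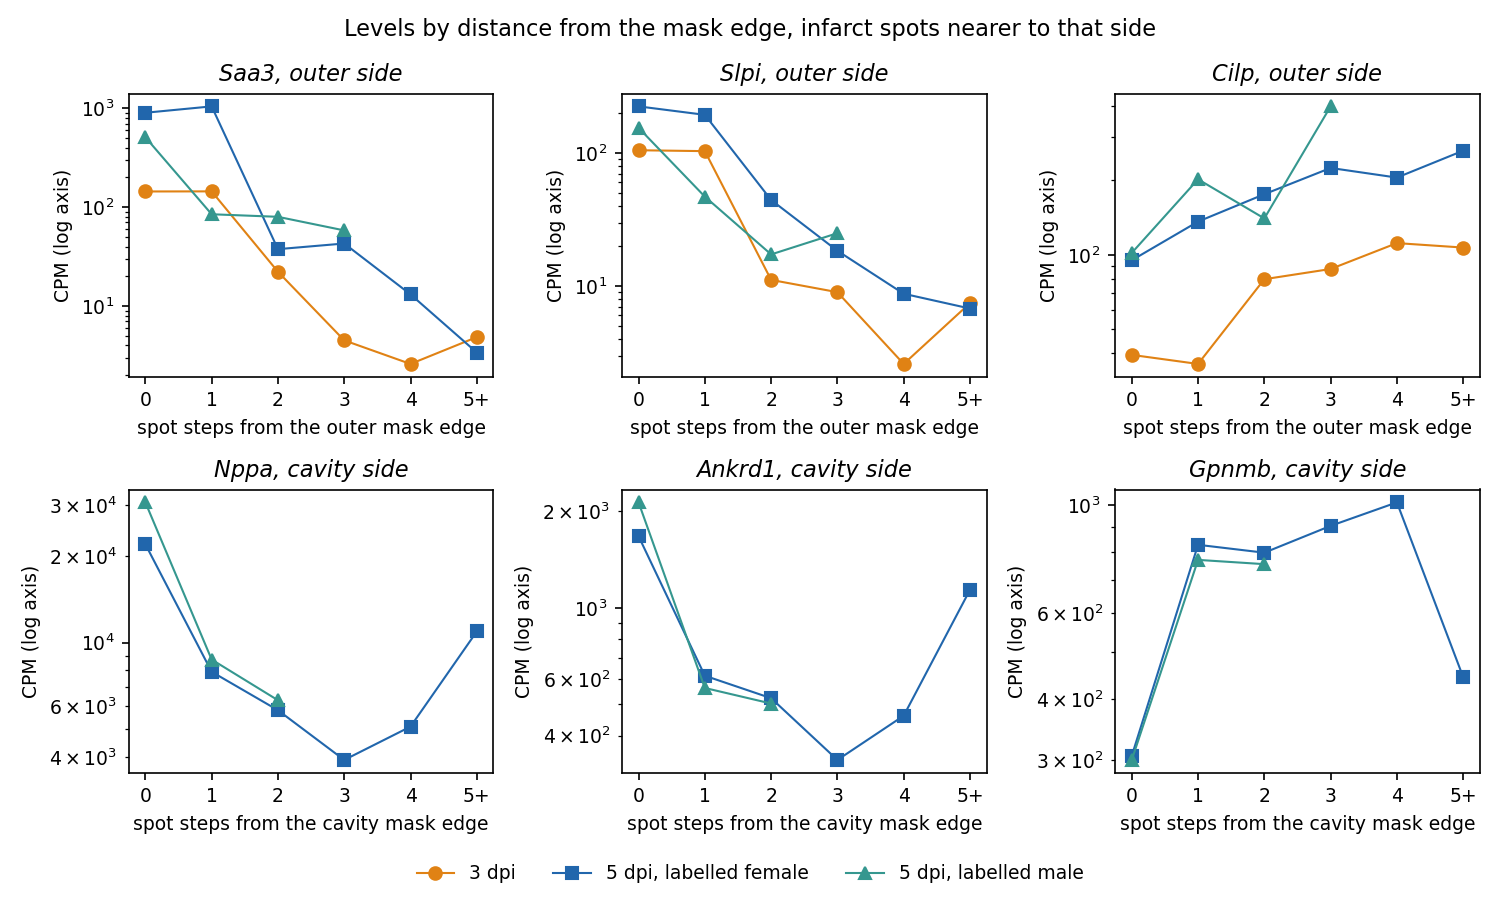
Levels of 6 genes in CPM on log axes by steps from the outer mask edge (upper row) or the cavity edge (lower row), over IZ spots nearer to that side, with 1 line per section, bins of at least 20 spots and values under 1 CPM drawn at 1. Saa3 drops from 1047 to 37.6 CPM between steps 1 and 2 in the section labelled female, and Nppa drops from 30700 to 8728 CPM between steps 0 and 1 at the cavity side of the section labelled male.

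Several groups showed few calls or none. None of the 10 cell cycle genes and none of the 13 TGF-beta pathway genes passed in any of the 3 comparisons, with medians from -0.07 to 0.17. Vascular endothelial genes had no call among 10 at the outer face and 2 lower at the cavity face. Of 3 tested endocardial genes 1 rose at the outer face, Plvap, a diaphragm protein of endothelium, by 0.59 (adjusted p = 0.0323 by edgeR), and none passed at the cavity face. A value past the threshold at one face and not at the other is not a test of their difference.

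Whether the surface of the infarct differed from the surface of the rest of the heart was tested as the difference of differences in the same 3 sections. Of 10708 genes none passed (0%) by edgeR, for which 328 had an unadjusted p under 0.05 and no adjusted p came near the threshold, and none by DESeq2, where 185 had an unadjusted p under 0.05. Saa3 measured 5.11, 50.2 and 20.2 CPM at the surface outside the IZ against 2.88, 5.17 and 6.17 CPM inside that tissue. The classes outside the IZ were small, 256 surface spots in all against 1589 inner spots, and this fit compares surfaces whose outer and cavity shares differ between sections.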

How the data were processed

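Sections of mouse heart on Visium slides gave UMI counts per gene and spot, which the authors deposited after Space Ranger 1.3.1 had been run, with the spots under tissue picked by hand. The labels name mm10 and the methods an Ensembl-based reference, so no coordinates were taken from the files. Spots with under 500 UMIs were left out, and the 13 mitochondrial genes of 21885 were left out of sums. Counts were summed per class and section (163325 to 4983421 UMIs) and tested with edgeR 4.0.16 (R 4.3.3): filterByExpr, TMM, section as a block, quasi-likelihood test, adjusted p under 0.05. The block is the heart that both classes share. The filter took the class as group, so a gene abundant in 1 class alone could be tested. DESeq2 1.42.0 was an alternative. A gap of at least 20 array positions enclosed by the mask counted as cavity. Genes were named by size of change (12 each way, 8 for each face) if called, in 1 direction in every section and at 50 CPM or more, and all 22 calls of the comparison over both faces were also listed. Log2 ratios per section used a prior count of 0.5. Classes, members and the 35 gene lists were chosen with earlier results of these data known, and 3 list genes had no match. Some genes within the counts are not reported here. Programs were tested on simulated data. Each section is 1 heart, so no comparison had more than 3 replicates. A planned test between both faces over 3 sections was not run, as the 3 dpi mask has no cavity.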

Additional observations from a re-analysis of the deposited data

Results flagged for a closer look

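Spots outside the tissue mask were not part of any class, yet in the 5 dpi section labelled male 267 of them lay beside the infarct and carried UMIs. Saa3 stood at 911 CPM in these spots, Slpi at 368 CPM, Prtn3 at 157 CPM, Msln at 80.1 CPM, Upk1b at 71.3 CPM and Krt8 at 75.7 CPM. In the surface spots of the control section these genes measured 0, 1.92, 0, 17.3, 3.84 and 1.92 CPM in the same order. At the outer mask edge of the same section Msln measured 25.8 CPM and Slpi 155 CPM. The 243 spots in gaps enclosed by the mask had 29.3 CPM of Saa3 and 13033 CPM of Nppa.

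A second set of values ran in opposite directions at 3 and 5 dpi over the whole surface class. Ankrd1 differed between surface and inner IZ by -1.01 on the log2 scale at 3 dpi but by 0.67 (labelled female) and 0.75 (labelled male) at 5 dpi. Nppa gave -0.54 against 1.07 and 1.35, and Parm1 -1.22 against 0.75 and 0.89. The difference between times was not tested: 3 dpi has 1 section, and its surface class faced outwards only. At the outer face alone the 3 sections shared a sign. Ankrd1 differed from the inner class there by -1.01, -1.37 and -0.69 and Nppa by -0.54, -1.75 and -1.02. Parm1 measured 32.8, 42.0 and 45.1 CPM there against 83.8, 55.1 and 57.3 CPM inside.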

How the results depend on the processing

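The count of 22 genes called between surface and inner IZ moved with most settings. It was 8 with DESeq2, 80 without a filter on low counts (15517 genes tested), 4 without the replicate block that pairs both classes of a heart, 41 with inner tissue at least 3 steps deep, 44 with spots at least 3 steps from tissue outside the IZ, 178 with the outer face only and 724 with the cavity face only. It was 1 with spots off the mask counted as tissue, and 44 where tissue spots under 500 UMIs did not count as tissue, a setting chosen after seeing the data. Leaving out 1 section gave 5 to 131: 131 without the 3 dpi section (all 22 among them), 5 without the section labelled female (all among the 22) and 33 without the section labelled male (14 of the 22). It was 18 to 26 with 1000 UMIs per spot, a stricter infarct limit, spots thinned to 2000 UMIs (6496 genes tested) or mitochondrial genes kept. All of the 22 that could be tested kept their direction under each of these settings except the cavity face only, where Saa3, Slpi, Hp and C3 were among those that reversed, to -0.87, -1.39, -1.07 and -1.03. Over the 9 genes reported from the naming rule, 93 of 144 values kept side and direction, 47 missed the threshold and 4 reversed.

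The 178 calls at the outer face became 62 to 253 when 1 section was left out, a setting chosen after seeing the data: 62 without the section labelled female, where Msln and Trim54 were not called, 236 without the section labelled male and 253 without 3 dpi. The count of 0 for the difference between the IZ and the rest became 2 without the filter (Ccl21a at -1.52 and Spp1 at -1.49). Causes were not tested. The test between both faces and its other settings were not run, since the 3 dpi mask has no cavity. With 62 shallow surface spots at 3 dpi, genes under about 20 CPM rest there on 3 UMIs or fewer.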

Other observations

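The sums of red cell transcripts ran in different directions between hearts. The 5 erythroid genes summed to 6042, 26380 and 8022 CPM at the outer face of the 3 dpi section and the 5 dpi sections labelled female and male, to 2736, 20721 and 18116 CPM inside the IZ, and to 34862 and 5436 CPM at the 5 dpi cavity faces. The cavity face was thus above the inner class in the section labelled female and below it in the section labelled male. In the fit over both hearts 3 of the 5 genes were called lower at the cavity face and none higher, with a median log2 difference of -0.40. Among them Hba-a1 measured 8551 and 1043 CPM at the cavity face against 5218 and 4042 CPM inside, so this call rests on the section labelled male.

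Immediate early genes rose in part at the outer face, 2 of 10 tested, among them Fos at 13.1, 57.0 and 28.3 CPM against 13.9, 24.3 and 15.4 CPM inside (log2 difference 0.98, adjusted p = 0.0221 by edgeR).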
